A study of Mus musculus with 30 samples.

Results

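The comparison set dorsal root ganglion (DRG) against hind paw tissue in the mRNA libraries of the PRL_Sh groups, which are the 6 libraries whose titles contain PRL_Sh, of 30 libraries in the series. Female_DRG_PRL_Sh and Female_paw_PRL_Sh held 3 libraries each. Both groups came from female C57BL/6J mice aged 10 to 12 weeks with prolactin as the labelled treatment, so the groups share sex, strain, age band and treatment and differ in tissue. The protocol lists 1 µg of prolactin injected into the paw, once or daily for 12 days, and the labels assign no library to either schedule; they do not say what Sh stands for, whether ganglia or paws were pooled, or whether replicates are separate animals. P-values therefore measure the spread between these libraries. The other 24 libraries were made by rRNA depletion and enter below only to show where the PRL_Sh contrast differs from the same tissue contrast in female PRL and female Veh (vehicle) mice, with 3 libraries per tissue each.

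The DRG holds the cell bodies of the sensory neurons that serve skin, muscle and joint, together with the satellite glia that wrap each cell body and the Schwann cells that myelinate its axon. The hind paw holds the outer ends of those axons, in tissue made of epidermis, sweat glands, hair follicles, dermis, fat, vessels, tendon, bone and muscle. A sensory neuron makes nearly all its mRNA in the cell body, and the paw supplies growth factors that the axon endings take up. Prolactin acts through the receptor Prlr and the JAK-STAT5 pathway.

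Gene reads numbered 21960972 to 26515208 per library in DRG and 21795035 to 23232338 in paw. They made up 56.4% to 56.8% of all counts in DRG files, gene reads and summary lines together, and 42.2% to 43.0% in paw files. Counts for alignments that were not unique made up 31.7% to 32.6% in DRG and 46.3% to 48.3% in paw. It is not known here whether a read enters those counts once or once per alignment. A read was found for 17338 to 17506 genes in DRG libraries and for 17074 to 17273 in paw libraries. Levels below are CPM, read counts scaled to the TMM-normalised library size, given as mean ± SD of 3 libraries per tissue unless each library is listed. CPM are not divided by gene length, so levels are compared between tissues and never between genes. In bulk tissue, fewer cells of a type and less RNA per cell cannot be told apart.

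The labelled tissues carried their own markers. Scn10a, the sodium channel of pain-sensing neurons, had 24929, 25889 and 33809 reads in DRG, against 10, 21 and 4 reads in paw. Krt10, a keratin of differentiating epidermis, had 573, 559 and 665 reads in DRG, against 520788, 573432 and 361879 reads in paw. The groups did not overlap for either gene. The inactive-X transcript Xist stood at 281 ± 45 CPM in DRG and 1327 ± 71.4 CPM in paw. Each of 4 Y-linked genes (Uty, Kdm5d, Ddx3y and Eif2s3y) had 0 to 3 reads in a library.

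Of 22609 genes in the files, 15735 passed the filter on low counts and were tested, and 12612 of them (80.2%) differed between the tissues at an edgeR adjusted p under 0.05. In DRG, 6328 genes (40.2%) were higher and 6284 (39.9%) lower. This split depends on the scaling and the libraries fitted: it was 5882 higher and 6776 lower with upper-quartile scaling and 5627 higher and 7678 lower when all 30 libraries were fitted together. All 3 DRG libraries lay above or below all 3 paw libraries for 13111 genes (83.3%). The median absolute log2 fold change was 1.09 over all genes tested. A stricter rule that also asked for a change of at least 8-fold called 1888 genes higher in DRG (12%) and 1355 lower (8.61%). With 4 in 5 genes called, a list whose members passed at that rate is no different from the genes at large, and each list is read below against these shares.

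The 10 genes with the most reads in each tissue shared no member. In DRG, Mbp took 0.661% of gene reads, Pmp22 0.542% and Nefl 0.464%, all of myelin or axons, and the first 10 genes took 4.71%. In paw, Krt2 took 2.69%, Krt10 2.18% and Krt1 1.18%, all of epidermis, followed by the muscle genes Atp2a1 at 0.684% and Acta1 at 0.6%, and the first 10 took 9.69%. Among genes of at least 64 CPM in the higher tissue with a read in every library and no overlap, the 12 largest rises in DRG included many genes known in neurons. They were Scn10a, Nefl, Nefm, Nefh, Calca, Ctnna2, Mapk10, Gng3, Scg2, Slc45a1, Stmn3 and Tmem130. Ctnna2, a neuronal catenin, had 297, 318 and 366 CPM in DRG, against 0.13, 0.23 and 0.045 CPM in paw (log2 fold change 11.19 ± 0.26 SE, edgeR adjusted p = 3.4e-08). Mapk10, a kinase of neurons, had 298, 288 and 324 CPM in DRG, against 0.0867, 0.23 and 0.0901 CPM in paw (log2 fold change 11.08 ± 0.21 SE, edgeR adjusted p = 2.45e-08). The 12 largest falls were Krt5, Krt9, Krt14, Krt15, Krt24, Csta, Flg2, Il1f5, Serpina3j, Serpinb3b, Sprr1b and Wfdc12, mostly genes of keratinocytes. Krt9, the keratin of palm and sole skin, had 3.65, 2.15 and 2.68 CPM in DRG, against 5169, 5262 and 2787 CPM in paw (log2 fold change -10.60 ± 0.44 SE, edgeR adjusted p = 3.19e-07). Sprr1b, of the cornified envelope, had 0.243, 0.183 and 0.415 CPM in DRG, against 527, 428 and 293 CPM in paw (log2 fold change -10.48 ± 0.36 SE, edgeR adjusted p = 1.33e-07). The groups lay apart by the rule for all 24.

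**Figure D1:**
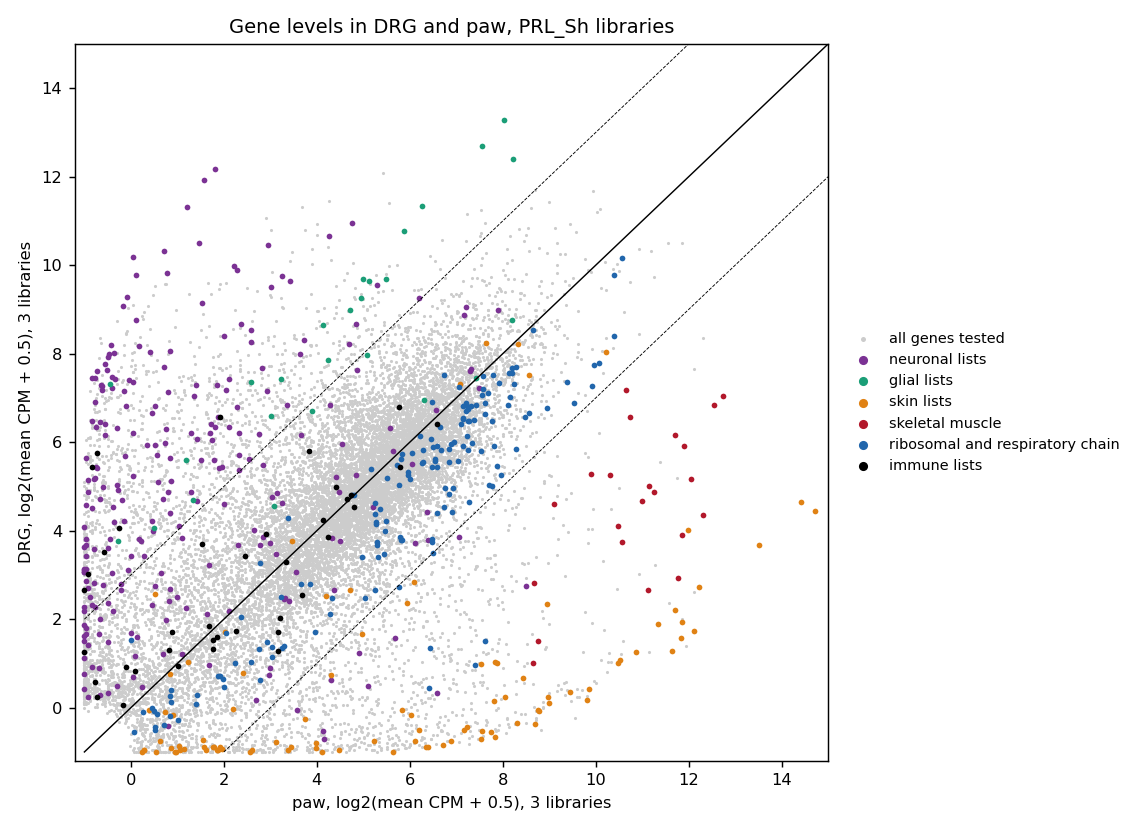
Mean level of each tested gene in DRG (y axis) and paw (x axis), both as log2(CPM + 0.5) over 3 libraries, with a solid line at equality and dashed lines at 8-fold. Neuronal and glial list members lie mostly above the upper dashed line and skin and muscle members below the lower one. The ribosomal and respiratory chain members lie mostly between equality and the lower dashed line, with median log2 fold changes of -1.96 and -0.63.

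Genes of neuronal identity set the DRG apart. All 14 pan-neuronal cytoskeleton and RNA-binding genes passed and were at least 8-fold higher in DRG, with a median log2 fold change of 9.56 against -0.01 over all genes tested. The neurofilament subunit Nefm, which builds the axon's intermediate filaments, had 3721, 3883 and 3991 CPM in DRG, against 1.69, 3.68 and 2.07 CPM in paw, and the groups did not overlap (log2 fold change 10.61 ± 0.38 SE, edgeR adjusted p = 1.5e-07). Nefl stood at 4643 ± 147 CPM in DRG and 2.99 ± 2 CPM in paw. Prph, the filament of small-diameter neurons, was at 1439 ± 119.5 CPM in DRG and 2.26 ± 0.552 CPM in paw. The neuronal splicing factor Rbfox3 was at 196 ± 10.3 CPM in DRG and 0.106 ± 0.113 CPM in paw. Together the 14 genes took 1.93% to 2.07% of gene reads in DRG libraries and 0.00663% to 0.00693% in paw libraries.

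Of 11 transcription factors of sensory neurons, 10 were tested and all 10 were higher in DRG, 8 of them by at least 8-fold. Prdm12, a factor needed for the nociceptor lineage, had 156, 173 and 197 CPM in DRG, against 0.0434, 0.138 and 0 CPM in paw, with every DRG library far above every paw library (log2 fold change 11.39 ± 0.31 SE, edgeR adjusted p = 5.21e-08). Isl1, which specifies sensory neurons, stood at 81.3 ± 7.31 CPM in DRG and 0.0902 ± 0.0459 CPM in paw. Tlx3, a selector of the glutamatergic sensory fate, was at 42.9 ± 7.26 CPM in DRG and 0.0911 ± 0.0789 CPM in paw. The paw level was least different for the Runt factors. Runx1, of peptide-poor nociceptors, stood at 79.5 ± 13.4 CPM in DRG and 47.1 ± 8.23 CPM in paw (log2 fold change 0.76). Runx3, of proprioceptors, was at 12.3 ± 1.39 CPM in DRG and 4.46 ± 0.919 CPM in paw (log2 fold change 1.46). Both factors are known outside neurons as well. Pou4f2 had 359, 346 and 494 reads in DRG, against no read in any paw library, a level at least 365-fold higher in DRG when the paw is set at the limit of 3 counts over its 3 libraries.

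Channels that carry sensory signals were mostly, but not all, higher in DRG. Of 14 voltage-gated sodium channel genes, 11 were higher, 1 was lower and 2 did not pass. The reads of Scn10a given above came to a log2 fold change of 11.09 ± 0.43 (SE, edgeR adjusted p = 2.38e-07). Scn11a, of nociceptors, stood at 622 ± 89.6 CPM in DRG and 0.441 ± 0.401 CPM in paw. Scn9a, needed for pain sensing in humans, was at 197 ± 61.3 CPM in DRG and 0.195 ± 0.0564 CPM in paw. Scn1a, of large myelinated neurons, was at 89.2 ± 1.87 CPM in DRG and 0.0587 ± 0.066 CPM in paw. Scn4a, the skeletal muscle channel, had 11.7, 16.8 and 13.5 CPM in DRG, against 138, 72.9 and 190.1 CPM in paw, lower in every DRG library than in any paw library (log2 fold change -3.25 ± 0.35 SE, edgeR adjusted p = 6.11e-05). The muscle genes described below ran in the same direction. The beta subunit Scn4b stood at 509 ± 22 CPM in DRG and 238 ± 83.7 CPM in paw (log2 fold change 1.10 ± 0.25 SE, edgeR adjusted p = 0.00413), and this call was lost when all 30 libraries were fitted together (adjusted p = 0.0989).

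Of 21 TRP, Piezo, ASIC and P2X genes, 20 were tested, with 16 higher in DRG, 3 lower and 1 that did not pass. Fam38b, the files' symbol for the touch channel Piezo2, had 343, 436 and 439 CPM in DRG, against 4.55, 3.73 and 5.77 CPM in paw (log2 fold change 6.44 ± 0.20 SE, edgeR adjusted p = 8.96e-08). The groups did not overlap. P2rx3, the ATP-gated channel of nociceptors, stood at 369 ± 30.5 CPM in DRG and 5.51 ± 1.18 CPM in paw. The heat and capsaicin channel Trpv1 was at 145 ± 32.8 CPM in DRG and 0.15 ± 0.14 CPM in paw. Trpa1, which responds to irritants, had 1136, 1077 and 1418 reads in DRG, against 0, 0 and 1 reads in paw, and the cold channel Trpm8 had 963, 948 and 1155 reads in DRG, against 4, 2 and 1 reads in paw. All DRG libraries lay far above all paw libraries for both. The 3 that were lower in DRG are channels of epithelial cells too. Fam38a (Piezo1) stood at 21 ± 2.29 CPM in DRG and 82.5 ± 13.5 CPM in paw (log2 fold change -1.98). Trpv4 was at 5.86 ± 0.521 CPM in DRG and 20.1 ± 0.544 CPM in paw (-1.78). Trpv3, of keratinocytes, was at 0.459 ± 0.137 CPM in DRG and 11.4 ± 1.52 CPM in paw (-4.63). Their edgeR adjusted p-values were 6.31e-06, 4.97e-06 and 1.55e-06 in that order.

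Calcium and potassium channel genes were mostly higher in DRG, with the muscle forms lower. Of 24 calcium channel subunits tested, 17 were higher in DRG, 4 lower and 3 did not pass. Cacna1b, the presynaptic N-type channel, stood at 120.1 ± 10.1 CPM in DRG and 0.0891 ± 0.0426 CPM in paw. Cacnb3 was at 299 ± 29.1 CPM in DRG and 25.4 ± 2.74 CPM in paw. Cacna1s, the voltage sensor of skeletal muscle, stood at 6.28 ± 5.31 CPM in DRG and 363 ± 120.2 CPM in paw (log2 fold change -5.87), and its partners Cacng1 and Cacng6 at -7.05 and -6.51 on the same scale. Of 82 potassium channel genes tested, counted by a symbol pattern that also takes in auxiliary subunits and the antisense RNA Kcnq1ot1, 63 were higher in DRG and 14 lower, a split of 49 and 6 under the 8-fold rule. Kcna1, of juxtaparanodes, stood at 750.2 ± 25.2 CPM in DRG and 38.6 ± 7.67 CPM in paw. Kcnt1, a sodium-activated channel, was at 290.3 ± 29.9 CPM in DRG and 0.63 ± 0.257 CPM in paw. Kcnk6 was lower in DRG, at 2.5 ± 0.299 CPM in DRG and 51.1 ± 8.72 CPM in paw, and so was Kcnn3, at 1.84 ± 0.105 CPM in DRG and 29.5 ± 4.19 CPM in paw. Kcnip4, a channel-interacting protein, was at log2 fold change 9.96, while Kcnk7 was at -7.09 and Kcna7, of muscle, at -5.26. All these changes passed. Cacna2d1, the gabapentin target, did not pass, at 150.2 ± 25.9 CPM in DRG and 178 ± 103 CPM in paw, with the paw libraries spread over its DRG level.

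Genes of synaptic release and transmitter receptors were nearly all higher in DRG. All 18 genes of synaptic vesicles and release were higher in DRG, 17 by at least 8-fold; the exception was Vamp2 at log2 fold change 1.84, a vesicle SNARE that many secretory cells use. Snap25 stood at 1273 ± 33.4 CPM in DRG and 1.14 ± 0.687 CPM in paw. The vesicular glutamate transporter Slc17a6, which marks glutamatergic neurons, was at 218 ± 29.5 CPM in DRG and 0.18 ± 0.0478 CPM in paw. All 14 genes tested of the ionotropic glutamate receptor list, which also takes in a receptor-associated protein, were higher in DRG. So were 9 of 11 GABA-A subunits tested, and none of either list was lower. The kainate subunit Grik1 stood at 295 ± 37.6 CPM in DRG and 0.241 ± 0.194 CPM in paw. All 4 opioid receptor genes were higher. The delta receptor Oprd1 had 19.5, 25.2 and 22.8 CPM in DRG, against 0.0434, 0.046 and 0.0901 CPM in paw, and Oprl1 stood at 22.8 ± 2.36 CPM in DRG and 0.269 ± 0.0772 CPM in paw. The kappa receptor Oprk1 had 65, 47 and 78 reads in DRG, against no read in any paw library. The mu receptor Oprm1 had 26, 15 and 21 reads in DRG, against no read in any paw library, so both were found in DRG alone at this depth.

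Of 14 neuropeptide genes tested, 12 were higher in DRG and 2, Cck and Npy, did not pass. Calca, which encodes CGRP, had 821, 824 and 972 CPM in DRG, against 0.434, 0.921 and 0.36 CPM in paw (log2 fold change 10.57 ± 0.30 SE, edgeR adjusted p = 6.23e-08). Its DRG libraries lay within a narrow band and the paw libraries all below 1 CPM. Tac1, the substance P precursor, stood at 177 ± 27.9 CPM in DRG and 0.253 ± 0.0438 CPM in paw. Adcyap1, of PACAP, was at 88 ± 15.9 CPM in DRG and 0.135 ± 0.0927 CPM in paw. Calcb was at 81 ± 12.8 CPM in DRG and 3.82 ± 0.841 CPM in paw. The peptides of itch neurons were higher as well. Sst stood at 8.25 ± 4.05 CPM in DRG and 0.0153 ± 0.0266 CPM in paw. Nppb stood at 6.51 ± 1.6 CPM in DRG and 0.0748 ± 0.0522 CPM in paw. Penk showed the smallest rise (log2 fold change 1.07 ± 0.42 SE, edgeR adjusted p = 0.0472), with 13.9 ± 8.95 CPM in DRG and 6.63 ± 1.47 CPM in paw, and DRG replicate 1 was the highest library. Of 13 itch and Mrgpr receptor genes tested, 11 were higher in DRG. Mrgprd, of non-peptidergic nociceptors, had 3660, 3987 and 5192 reads in DRG, against 3, 3 and 0 reads in paw. Mrgpra3, the chloroquine receptor, had 178, 154 and 246 reads in DRG, against no read in any paw library. The exceptions were Osmr (55.5 ± 2.85 CPM in DRG and 49.6 ± 5.35 CPM in paw) and Mrgprf (10.6 ± 0.994 CPM in DRG and 8.2 ± 2.08 CPM in paw), which did not pass.

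Growth factors and their receptors were divided between the tissues. Of 10 neurotrophin and GDNF family receptor genes, 9 were higher in DRG, while of 7 ligand genes tested 5 were lower in DRG and Bdnf alone was higher. Ret, the signalling subunit for GDNF ligands, had 736, 878 and 969 CPM in DRG, against 9.15, 9.07 and 8.87 CPM in paw (log2 fold change 6.57 ± 0.16 SE, edgeR adjusted p = 3.85e-08), and the groups did not overlap. Ngfr was at 722 ± 68.3 CPM in DRG and 7.57 ± 0.855 CPM in paw. Sort1 did not pass (log2 fold change 0.32 ± 0.13 SE, edgeR adjusted p = 0.0551), and it passed in 6 of 15 alternatives.

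Among the ligands, Ntf5 (neurotrophin-4) had 2, 3 and 2 reads in DRG, against 109, 96 and 97 reads in paw (log2 fold change -5.47 ± 0.30 SE, edgeR adjusted p = 1.32e-06). Nrtn, the ligand of Gfra2, had 0.568, 0.457 and 0.339 CPM in DRG, against 20.1, 12.7 and 9.82 CPM in paw (log2 fold change -4.96 ± 0.36 SE, edgeR adjusted p = 7.17e-06). Gdnf had 10, 5 and 14 reads in DRG, against 94, 86 and 91 reads in paw (log2 fold change -3.35 ± 0.30 SE, edgeR adjusted p = 2.07e-05). For these 3 ligands every DRG library lay below every paw library. Ntf3 stood at 0.912 ± 0.357 CPM in DRG and 3.39 ± 0.467 CPM in paw. Artn was at 0.257 ± 0.174 CPM in DRG and 0.759 ± 0.137 CPM in paw. Their log2 fold changes were -1.90 and -1.59. The Artn call was lost in edgeR without DRG replicate 1 (adjusted p = 0.0509), without DRG replicate 3 (0.0572) or without paw replicate 1 (0.051). Bdnf, which sensory neurons themselves make, had 25.6, 35.7 and 30.2 CPM in DRG, against 14.3, 18.7 and 11.2 CPM in paw (log2 fold change 1.05 ± 0.20 SE, edgeR adjusted p = 0.00181).

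Set as 24 ligand and receptor pairs, 7 had the ligand lower and the receptor higher in DRG, 3 had the ligand higher and the receptor lower, 4 had both higher and 1 had both lower; the other 9 held a gene that did not pass or was not tested. The 7 were Ntf5 with Ntrk2, Ntf3 with Ntrk3, Gdnf with Gfra1, Nrtn with Gfra2, Artn with Gfra3, Sema3a with Nrp1, and Cxcl12 with Cxcr4. Sema3a, a repellent that limits nerve growth, stood at 0.258 ± 0.0387 CPM in DRG and 8.94 ± 1.44 CPM in paw. Its receptor Nrp1 was at 81.5 ± 12.9 CPM in DRG and 40.2 ± 8.26 CPM in paw. Cxcl12 was lower (log2 fold change -0.53 ± 0.17 SE, edgeR adjusted p = 0.0214), a call lost in 4 of the fits without 1 library. Of the pairs with both genes higher, Adcyap1r1, the PACAP receptor, stood at 17.9 ± 11.2 CPM in DRG and 7.77 ± 2.01 CPM in paw (log2 fold change 1.20 ± 0.42 SE, edgeR adjusted p = 0.0303), and its call was lost in 3 of the fits without 1 library, with limma voom and with the replicate number as a block. The 3 reverse pairs were peptides of sensory endings and receptors known on vessels and skin cells. Calcrl, the CGRP receptor, stood at 8.93 ± 1.16 CPM in DRG and 28.2 ± 11.2 CPM in paw (log2 fold change -1.66). Tacr1, the substance P receptor, was at 0.962 ± 0.477 CPM in DRG and 3.83 ± 0.494 CPM in paw (-1.98). Npr1 was at 9.7 ± 0.899 CPM in DRG and 19.1 ± 2.98 CPM in paw (-0.98). Prl itself was not tested.

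**Figure D2:**
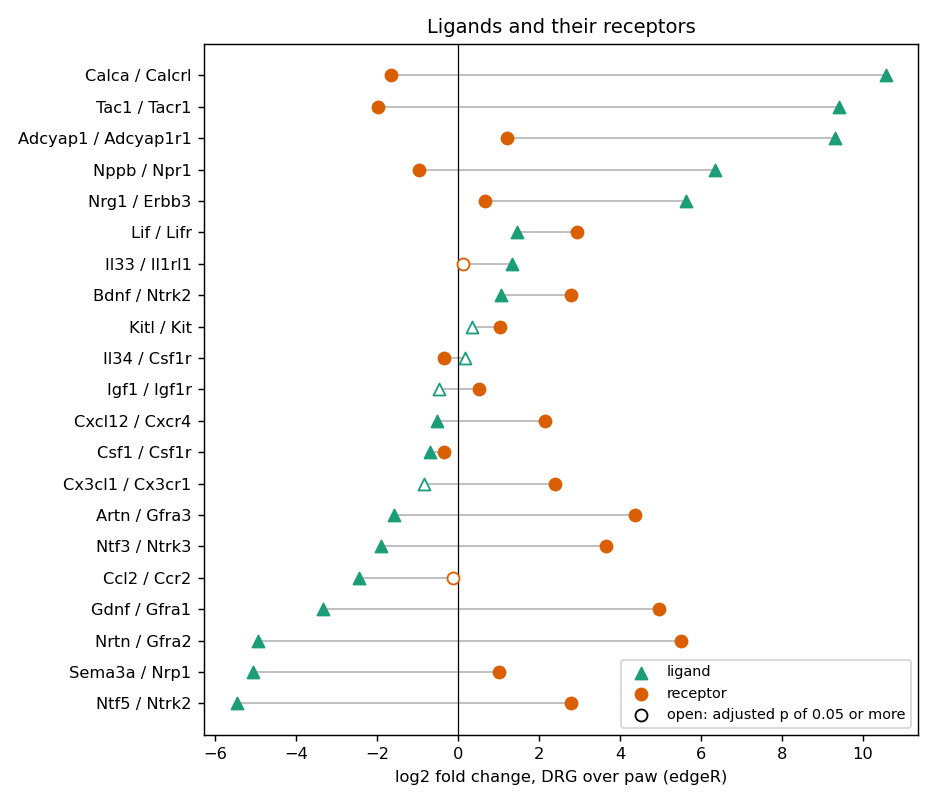
Log2 fold change, DRG over paw, of the ligand (triangle) and receptor (circle) of pairs with both genes tested; open symbols did not pass an edgeR adjusted p of 0.05. The GDNF family and neurotrophin pairs in the lower part, such as Gdnf with Gfra1, have the ligand left of 0 and the receptor right of it, and Calca with Calcrl and Tac1 with Tacr1, at the top, the reverse.

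Glial genes formed the other DRG component. Of 15 peripheral myelin genes, 14 were higher in DRG, 12 by at least 8-fold. Mbp, myelin basic protein, had 7697, 6971 and 5175 CPM in DRG, against 176, 174 and 208 CPM in paw (log2 fold change 5.15 ± 0.24 SE, edgeR adjusted p = 6.09e-07). DRG replicate 3 was the lowest of its group and still lay well above the paw. Pmp22 was at 5425 ± 947 CPM in DRG and 299 ± 6.07 CPM in paw. The list took 3.30%, 3.23% and 2.36% of gene reads in DRG replicates 1, 2 and 3 and 0.116%, 0.116% and 0.133% in paw, so the paw mean was 4.11% of the DRG mean. For the pan-neuronal genes it was 0.341%. Fa2h, an enzyme of myelin lipid synthesis that epidermis also uses, was at 175 ± 38.1 CPM in DRG and 170.4 ± 10.6 CPM in paw and did not pass. All 12 genes of satellite and non-myelinating glia were higher in DRG. Fabp7, of satellite glia, stood at 158 ± 18 CPM in DRG and 0.227 ± 0.169 CPM in paw. The potassium channel Kcnj10 of the same cells was at 112 ± 29.4 CPM in DRG and 0.43 ± 0.258 CPM in paw. Glul and Erbb3 differed least, at log2 fold changes of 0.56 and 0.66.

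Epidermal genes set the paw apart. All 14 epidermal keratins tested and all 22 cornified envelope genes tested were lower in DRG, 14 and 21 of them by at least 8-fold, with medians of -10.25 and -9.64 on the log2 scale. Set at its lower bound, Krt6b, without a DRG read, moves the keratin median to -10.21. Krt5, of basal keratinocytes, had 1.66, 2.7 and 1.47 CPM in DRG, against 2935, 3865 and 2754 CPM in paw (log2 fold change -10.69 ± 0.36 SE, edgeR adjusted p = 1.11e-07). Krt10 had 23.2, 25.5 and 25.1 CPM in DRG, against 22582, 26398 and 16301 CPM in paw, and Krt2 stood at 21.2 ± 0.838 CPM in DRG and 26940.0 ± 6529 CPM in paw. In every case the paw libraries were above the DRG libraries and paw replicate 2 was the highest and paw replicate 3 the lowest of Krt10 and Krt2. Lor, the main cornified envelope protein, stood at 4.09 ± 0.264 CPM in DRG and 3333 ± 979 CPM in paw. Hrnr was at 6.08 ± 0.278 CPM in DRG and 4753 ± 1177 CPM in paw. The epidermal keratins took 0.00684%, 0.00686% and 0.00679% of gene reads in the DRG libraries, against 7.63%, 8.83% and 5.45% in the paw libraries.

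Of 17 genes of basal epidermis and adhesion, 14 were lower in DRG and only Itgb4 was higher. The desmosomal gene Dsp stood at 3.35 ± 0.492 CPM in DRG and 3709 ± 646 CPM in paw. The epidermal regulator Trp63 was at 1.52 ± 0.27 CPM in DRG and 234 ± 43.1 CPM in paw. Itgb4, an integrin subunit of hemidesmosomes that Schwann cells also use, had 333, 317 and 255 CPM in DRG, against 198, 210.2 and 185 CPM in paw (log2 fold change 0.61 ± 0.12 SE, edgeR adjusted p = 0.0021); its DRG libraries all lay above the paw libraries. Cdh1, the epithelial cadherin, did not pass, at 297 ± 1.88 CPM in DRG and 323 ± 61.3 CPM in paw. Itga6, the partner of Itgb4, did not pass, at 158 ± 39.6 CPM in DRG and 136 ± 12.6 CPM in paw. Of 20 hair and inner root sheath keratins, 17 were lower in DRG, led in reads by Krt25 (1.18 ± 0.265 CPM in DRG and 19.4 ± 5.67 CPM in paw), and Krt71, of the inner root sheath, had no read in any DRG library, against 412, 459 and 253 reads in paw. Of 51 keratin-associated protein genes only 10 passed the filter, and all 10 were lower in DRG; without the filter 37 were. Sweat gland and simple epithelial genes were lower in 9 of 10 tested, among them the water channel Aqp5 of sweat glands (0.192 ± 0.047 CPM in DRG and 187 ± 60.1 CPM in paw) and the factor Foxi1 (1, 0 and 0 reads in DRG, against 480, 717 and 264 reads in paw). Of 4 melanocyte genes tested, Dct (-1.78 on the log2 scale) and Pmel (-1.38) were lower in DRG, Tyrp1 (2.55) was higher and Mitf did not pass. The Pmel call was lost in 3 of the fits without 1 library.

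Promoter sequence was searched for the TATA box, a binding site of the basal transcription machinery, and 3 stretches from an epidermal keratin, a cornified envelope gene and a muscle gene are shown to place it. The letters TATAAA were searched on both strands in RefSeq windows of 300 bases (250 before to 50 after each annotated start, build GRCm38.p6), and no other motif was searched. They were present in 1162 of 14056 windows of all tested genes with an entry (8.27%), in 160 of 1694 windows of genes at least 8-fold higher in DRG (9.45%) and in 191 of 1073 of genes at least 8-fold lower (17.8%). By list, they were in 34 of 39 windows of keratin-associated proteins (87.2%), 11 of 14 of hair keratins (78.6%), 9 of 22 of the cornified envelope (40.9%), 6 of 21 of skeletal muscle (28.6%), 1 of 8 of epidermal keratins (12.5%), 4 of 16 of the neuropeptides (25%), 3 of 14 of the TRP, Piezo, ASIC and P2X channels (21.4%), 3 of 15 of the GABA-A subunits (20%), 2 of 22 of the synaptic list (9.09%) and 0 of 10 of the sodium channels. Neuronal lists thus lay on both sides of the share over all tested genes. These shares describe letters in windows and were not tested. Each stretch runs 5′ to 3′ over 30 bases with TATAAA in capitals.
Krt10: gccctctcagtaTATAAAggctcggcactg
Lor: gcaggacaagagTATAAAacacaggagcac
Acta1: ctcccgggactaTATAAAaacctgtgcaag
The Krt10 stretch is chr11:99389373-99389402, on the minus strand, with the motif 26 bases before the annotated start. The Lor stretch is chr3:92083152-92083181, also on the minus strand, 27 bases before the start. The Acta1 stretch is chr8:123894765-123894794, on the minus strand, 7 bases before the start annotated in that table.

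Skeletal muscle genes were the other large paw component, and their reads varied between libraries. All 22 muscle genes were lower in DRG by at least 8-fold, and at least 21 were called lower in every alternative. Mb, myoglobin, had 5.64, 7.08 and 8.75 CPM in DRG, against 3794, 2349 and 4356 CPM in paw (log2 fold change -8.93 ± 0.37 SE, edgeR adjusted p = 3.37e-07). Acta1, the skeletal actin, had 58.3, 265 and 20.6 CPM in DRG, against 6279.8, 4922 and 6796 CPM in paw (log2 fold change -5.71 ± 0.95 SE, edgeR adjusted p = 0.000778). Neither gene overlapped between the tissues, but DRG replicate 2 stood above its group for Acta1. The list took 0.0589%, 0.199% and 0.0194% of gene reads in DRG replicates 1, 2 and 3, a 10.3-fold spread, and 5.57%, 3.76% and 7.4% in paw. Myh4, of fast fibres, had 81.1, 348 and 4.34 CPM in DRG, against 2761, 899 and 1149 CPM in paw (log2 fold change -3.47 ± 1.26 SE, edgeR adjusted p = 0.0338), and this call was lost without DRG replicate 1 (adjusted p = 0.0979) or without paw replicate 1 (0.0964). Mb, given above, did not follow replicate 2, and neither did Myh2, with 5.92, 6.67 and 4.98 CPM in DRG, against 1659, 1743 and 3316 CPM in paw. The part of the muscle reads of each library in other results was not tested.

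**Figure D3:**
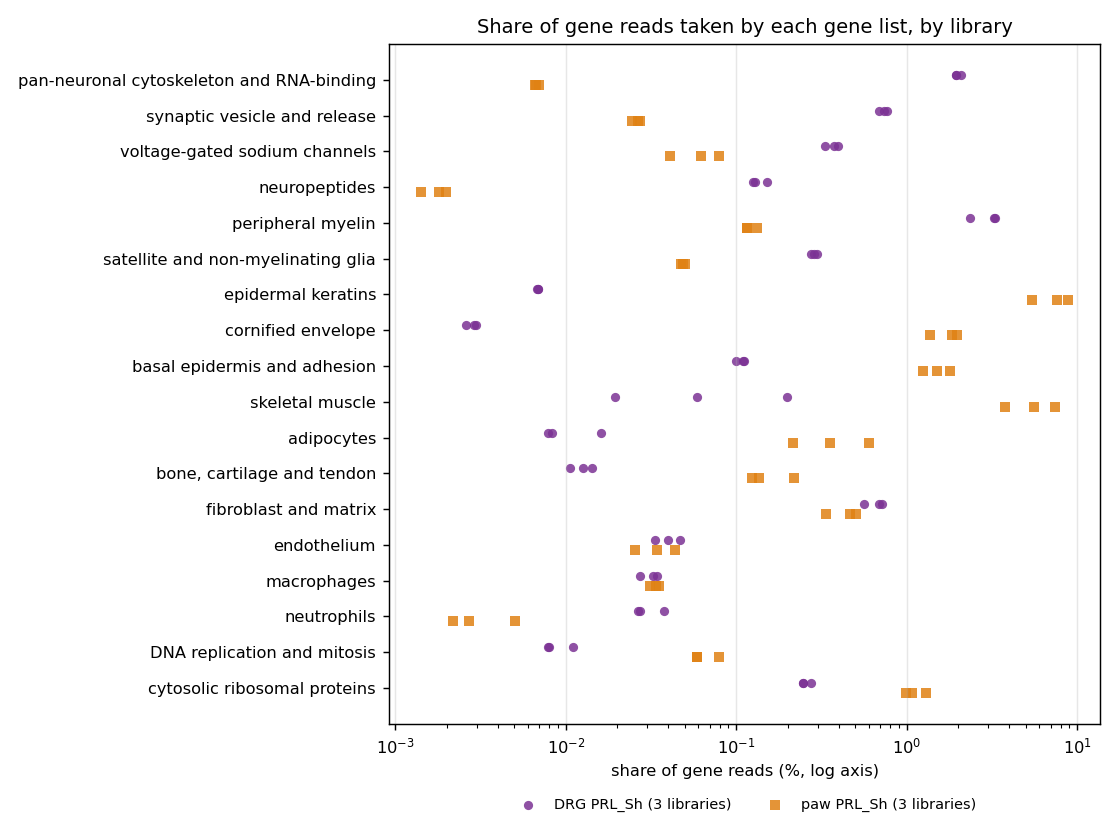
Share of gene reads (percent, log axis) taken by 18 gene lists in each library, circles for the 3 DRG libraries and squares for the 3 paw libraries. Neuronal and glial lists lie to the right in DRG and epidermal, muscle and fat lists to the right in paw; the macrophage and endothelial lists overlap, and muscle shows a 10.3-fold spread within DRG.

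In the PRL_Sh libraries, connective tissue and vessels differed by gene and not as blocks, while most fat genes were lower in DRG. Of 20 fibroblast and matrix genes, 5 were higher, 8 lower and 7 did not pass, with a median log2 fold change of -0.13. The rRNA-depleted libraries differed: 15 of 20 were lower and 2 higher in female PRL mice (median -1.97). In female Veh mice 17 of 20 were lower and 2 higher (median -1.28). Sparc, a matrix protein that Schwann cells also secrete, had 3037, 2998 and 2269.7 CPM in DRG, against 522, 402 and 611 CPM in paw (log2 fold change 2.44 ± 0.22 SE, edgeR adjusted p = 2.03e-05), all DRG libraries above all paw libraries. Dcn (decorin) was lower (log2 fold change -0.45 ± 0.17 SE, edgeR adjusted p = 0.0415), a call lost in 5 of 6 fits without 1 library, and Col1a1, the main collagen of skin and bone, did not pass, at 363 ± 42.5 CPM in DRG and 272 ± 144 CPM in paw. The count of lower genes was 4 without DRG replicate 3. Col1a2 did not pass (log2 fold change 0.83 ± 0.36 SE, edgeR adjusted p = 0.0645) and passed without paw replicate 3 (edgeR adjusted p = 0.00119). It also passed in edgeR with all 30 libraries (adjusted p = 0.0383) and with the replicate number as a block (0.0496). The same held with limma voom (adjusted p = 0.0339) and DESeq2 (adjusted p = 0.0151). Of 12 adipocyte genes, 10 were lower in DRG, the carbonic anhydrase Car3 most (36 ± 26.7 CPM in DRG and 3448 ± 1795 CPM in paw, a gene that muscle also expresses), and Adipoq, the fat-cell hormone, did not pass (3.36 ± 1.28 CPM in DRG and 5.83 ± 1.98 CPM in paw). Of 20 bone, cartilage and tendon genes tested, 11 were lower in DRG, such as the joint lubricant Prg4 (10.4 ± 4.34 CPM in DRG and 578 ± 158 CPM in paw), and 3 were higher. One of those, the cartilage collagen Col2a1, had 7.75, 8.36 and 6.41 CPM in DRG, against 0.867, 0.138 and 0.541 CPM in paw (log2 fold change 3.84 ± 0.45 SE, edgeR adjusted p = 9.95e-05). Of 14 endothelial genes, 3 were higher (Vwf, Cldn5, Flt1), 3 lower (Pecam1, Lyve1, Prox1) and 8 did not pass. Vwf, the clotting factor stored in endothelium, stood at 96.1 ± 24.9 CPM in DRG and 25.6 ± 6.07 CPM in paw, and the lymphatic genes ran the other way. Lyve1 stood at 5.82 ± 1.17 CPM in DRG and 12 ± 3.63 CPM in paw. Prox1 stood at 0.147 ± 0.193 CPM in DRG and 2.7 ± 1.37 CPM in paw.

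Immune and blood genes did not move as one either. Of 15 macrophage genes, 9 did not pass, among them Lyz2 (84.7 ± 11.4 CPM in DRG and 95.4 ± 7.58 CPM in paw) and the complement gene C1qa (27.5 ± 3.77 CPM in DRG and 26.3 ± 6.4 CPM in paw); Cx3cr1 and Cd163 were higher in DRG and Cd68, Cd14, Fcgr1 and Csf1r lower. The Csf1r call was lost in edgeR without DRG replicate 2 (adjusted p = 0.0555) or replicate 3 (0.0592). Neutrophil genes leaned to the DRG, with 9 of 11 higher in DRG, 8 of them by at least 8-fold. Ngp, a granule protein of developing neutrophils, had 1640, 1055 and 1190 reads in DRG, against 1, 1 and 5 reads in paw (log2 fold change 8.92 ± 0.37 SE, edgeR adjusted p = 3.11e-07). Ltf, lactoferrin, had 1334, 792 and 1041 reads in DRG, against 1, 2 and 1 reads in paw. Mpo, the peroxidase of early granules, had 205, 100 and 124 reads in DRG, against no read in any paw library, and Elane had 59, 44 and 34 reads in DRG, against no read in any paw library. For all 4 the DRG libraries were above the paw libraries, and DRG replicate 1 was the highest for each. S100a8 stood at 54.9 ± 7.67 CPM in DRG and 13.7 ± 4.47 CPM in paw, and Cxcr2, a receptor of mature neutrophils, was the only member lower in DRG (log2 fold change -2.12 ± 0.26 SE, edgeR adjusted p = 0.000143).

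All 4 erythroid genes tested were also higher in DRG. Slc4a1, the anion exchanger of red cells, had 971, 410 and 589 reads in DRG, against 1, 2 and 3 reads in paw, and DRG replicate 1 was again highest. Alas2, of haem synthesis in red cell precursors, stood at 19.6 ± 8.22 CPM in DRG and 2.27 ± 0.883 CPM in paw. The haemoglobin genes Hba-a1, Hba-a2, Hbb-b1 and Hbb-b2 are listed at 0 reads in all 6 libraries; they include near-identical copies, and reads that mapped to several places were not counted for any gene. Neutrophil and erythroid genes thus shared their order over the DRG libraries, at 0.0378%, 0.0266% and 0.0272% of gene reads for the neutrophil list and 0.00797%, 0.00358% and 0.00442% for the erythroid list. Of 7 lymphocyte genes tested, 4 were higher, all at low levels (0.991 ± 0.292 CPM in DRG and 0.0884 ± 0.0766 CPM in paw for the B cell gene Cd79a). The count was 6 without paw replicate 3 and 2 under a filter of 1 CPM in 3 libraries, and the call of Lck, of T cells, was lost in 10 of 15 alternatives. Mast cell proteases did not pass, and Kit (111 ± 18.3 CPM in DRG and 54.2 ± 9.82 CPM in paw) and Hdc, both known in other cells, were higher in DRG. In female PRL libraries 6 of 7 mast cell genes tested were lower in DRG, where 36.5% of all genes were, and 1 was higher. In female Veh libraries 5 of 6 were lower, where 39.4% of all genes were, and 1 was higher. The source of the neutrophil and erythroid reads was not tested.

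Hox genes, which mark position along the body and limb axes, differed by cluster and by paralogue number. Of 36 Hox genes tested, 20 were higher in DRG, 9 lower and 7 did not pass. Over all genes tested, 80.2% passed, 40.2% higher and 39.9% lower, so Hox genes passed at about the rate of the genes at large. All 8 tested genes of the Hoxb cluster were higher in DRG. Hoxb5 had 18.9, 16.6 and 14.6 CPM in DRG, against 0.824, 1.06 and 1.31 CPM in paw (log2 fold change 3.97 ± 0.21 SE, edgeR adjusted p = 1.21e-06), and Hoxb8 had 34.1, 13 and 11.5 CPM in DRG, against 1.17, 0.644 and 1.4 CPM in paw, with DRG replicate 1 above the other libraries. In the Hoxd cluster, Hoxd1, which is known in mouse nociceptors, had 335, 326 and 436 reads in DRG, against no read in any paw library, while Hoxd13, a gene of the digits, had no read in any DRG library, against 421, 258 and 288 reads in paw. Each was found in 1 tissue alone at this depth. Hoxa13 likewise had no read in any DRG library, against 172, 75 and 243 reads in paw, and Hoxc13 had 33, 0 and 0 reads in DRG, against 281, 293 and 231 reads in paw. The DRG reads of Hoxc13 came from replicate 1 alone, as did those of Hoxc12 (24, 0 and 0 reads in DRG, against 108, 118 and 88 reads in paw) and of Hoxb13, which was not tested (28, 0 and 0 reads in DRG, against no read in any paw library). The middle of the Hoxa cluster, from Hoxa2 to Hoxa7, did not pass for any gene. Hoxa10 was higher in DRG (log2 fold change 0.63 ± 0.22 SE, edgeR adjusted p = 0.029), a call lost in 4 of 6 fits without 1 library and in 2 other alternatives.

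All 10 limb and skin patterning factors tested were lower in DRG. En1, which specifies the ventral side of the limb and sweat glands, had 0, 0 and 1 reads in DRG, against 982, 1104 and 665 reads in paw. Tbx4, a factor of the hindlimb, had 2, 9 and 5 reads in DRG, against 199, 136 and 134 reads in paw (log2 fold change -4.95 ± 0.42 SE, edgeR adjusted p = 1.72e-05). Prrx1, of limb mesenchyme, stood at 14.2 ± 2.18 CPM in DRG and 102 ± 25.1 CPM in paw. For En1 a single read was found over the 3 DRG libraries. Pitx1, which sets hindlimb identity upstream of Tbx4, was not tested, at 0 ± 0 CPM in DRG and 0.389 ± 0.132 CPM in paw.

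**Figure D4:**
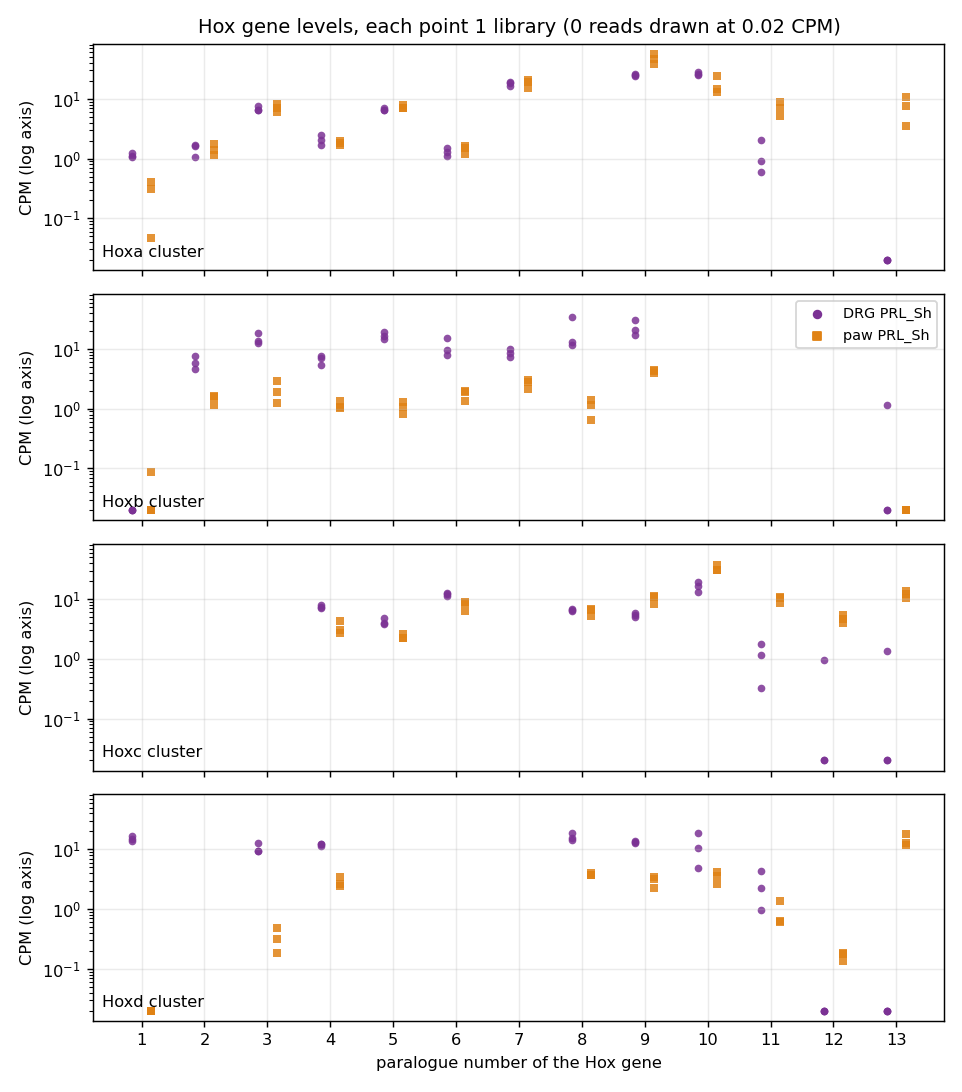
Level of each Hox gene (CPM, log axis) by paralogue number in the 4 clusters, circles for DRG libraries and squares for paw libraries, with 0 reads drawn at 0.02 CPM. The Hoxb genes lie higher in DRG, the Hoxa genes 2 to 7 overlap, and the genes numbered 13 of clusters a, c and d lie higher in paw.

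The prolactin receptor was lower in DRG. Prlr had 81, 93 and 135 reads in DRG, against 760, 651 and 900 reads in paw, or 3.29, 4.25 and 5.09 CPM in DRG, against 33, 29.97 and 40.5 CPM in paw. Every DRG library lay below every paw library, 8.20-fold lower by the means (log2 fold change -3.03 ± 0.19 SE, edgeR adjusted p = 3.38e-06). Downstream, Stat5a stood at 12.8 ± 0.662 CPM in DRG and 48.1 ± 8.05 CPM in paw. Stat5b was at 60.3 ± 1.55 CPM in DRG and 139 ± 31.2 CPM in paw. Both were lower in DRG, as were Jak2 (-0.64 on the log2 scale) and the STAT5 target Cish (-1.12). Jak1, Stat3, Ptpn11 and Irs2 were higher, at log2 fold changes of 0.88, 1.09, 0.69 and 1.02. In all, 4 of 17 genes of the pathway list were higher, 10 lower and 3 did not pass, so 14 of 17 passed where 80.2% of all genes did. Of the 13 hormone receptors listed, the vitamin D receptor Vdr had 1.74, 1.78 and 2.38 CPM in DRG, against 63.7, 74.3 and 60.9 CPM in paw (log2 fold change -5.06 ± 0.16 SE, edgeR adjusted p = 8.09e-08). The oestrogen receptor Esr1 had 8.15, 8.59 and 11.3 CPM in DRG, against 4.86, 2.85 and 4.46 CPM in paw, higher in DRG (log2 fold change 1.20 ± 0.24 SE, edgeR adjusted p = 0.00206), and the thyroid hormone receptor Thra stood at 219.6 ± 13.8 CPM in DRG and 57.9 ± 3.51 CPM in paw. Pgr, Esr2, Oxtr, Lepr and Nr3c2 did not pass.

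Of 24 translation factors, 8 were higher in DRG, 10 lower and 6 did not pass. Over all genes tested, 40.2% were higher and 39.9% lower, so the list was split much as the genes at large. Cpeb1, which controls polyadenylation and translation of target mRNAs, had 236, 234 and 251 CPM in DRG, against 26.1, 19.6 and 28.7 CPM in paw (log2 fold change 3.28 ± 0.15 SE, edgeR adjusted p = 5.35e-07). Its paralogue Cpeb4 had 2.76, 6.26 and 3.13 CPM in DRG, against 35.3, 24.7 and 33.2 CPM in paw (log2 fold change -2.95 ± 0.32 SE, edgeR adjusted p = 6.11e-05). The groups did not overlap for either, and the directions were opposite. Mtor stood at 147 ± 4.91 CPM in DRG and 71 ± 3.17 CPM in paw. The eIF2 kinase Eif2ak3 was at 66.8 ± 0.92 CPM in DRG and 27.9 ± 2.37 CPM in paw. The kinase Mknk2 that phosphorylates eIF4E was at 73.2 ± 4.02 CPM in DRG and 398 ± 17.4 CPM in paw. The repressor Eif4ebp1 was at 5.35 ± 1.31 CPM in DRG and 33.8 ± 1.68 CPM in paw. The first 2 of these were higher in DRG and the other 2 lower.

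Housekeeping lists leaned to the paw. Of 77 cytosolic ribosomal protein genes tested, 71 were lower in DRG and 0 higher in edgeR, with a median log2 fold change of -1.96. At an unadjusted p under 0.05, 1 was higher, and DESeq2 called 2 of 81 higher and 69 lower. Rplp0, of the ribosomal stalk, had 120.0, 117 and 117 CPM in DRG, against 684, 864 and 685 CPM in paw (log2 fold change -2.66 ± 0.13 SE, edgeR adjusted p = 7.49e-07). The DRG libraries lay within a narrow range below all paw libraries. Rpl3l, the muscle form, fell most (-6.89). Many of these genes have processed copies in the genome, so counts of single members are uncertain. The share of counts for alignments that were not unique differed between the tissues by the amounts given above. The part of that share in the result was not tested. All 15 genes of DNA replication and mitosis were lower in DRG, among them Mki67 (8.34 ± 0.546 CPM in DRG and 169 ± 24.5 CPM in paw), a marker of dividing cells. Of 13 circadian clock genes, 11 were lower and 2 did not pass; Arntl, the activator of the clock, had 7.87, 7.63 and 7.39 CPM in DRG, against 42.8, 46.8 and 40.3 CPM in paw, and its target Nr1d1 stood at 79.4 ± 4.98 CPM in DRG and 270.2 ± 13.7 CPM in paw.

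Nuclear-encoded respiratory chain genes were lower in DRG in 66 of 79 tested, higher in 5, with a median log2 fold change of -0.63. Ndufb5, of complex I, had 63.6, 62.7 and 61.2 CPM in DRG, against 162, 147 and 173 CPM in paw (log2 fold change -1.36 ± 0.09 SE, edgeR adjusted p = 3.13e-06), with no overlap. Atp5a1, of the ATP synthase, stood at 884 ± 35.3 CPM in DRG and 1349 ± 197 CPM in paw (log2 fold change -0.61 ± 0.15 SE, edgeR adjusted p = 0.00607). Atp5b, of the same complex, was at 1144 ± 33 CPM in DRG and 1521 ± 191 CPM in paw (log2 fold change -0.41 ± 0.14 SE, edgeR adjusted p = 0.03), a call lost in 5 of 6 fits without 1 library, and Sdha did not pass, at 373 ± 14.7 CPM in DRG and 399 ± 67.8 CPM in paw. The 3 higher genes with the smallest p were Cox6a1, Atp5s and Cox6b2. The muscle isoforms Cox6a2 and Cox8b showed log2 fold changes of -6.42 and -6.69, and Cox6a1, the form of other tissues, ran the other way at 0.77. The direction of this list depended on the kind of library. In the rRNA-depleted libraries, the same contrast called 38 of 78 tested genes higher in DRG and 1 lower in female PRL mice, where 35.9% of all genes were higher and 36.5% lower. In female Veh mice it called 39 of 78 higher and 7 lower, where 40.9% of all genes were higher and 39.4% lower. The medians were 0.35 and 0.23. The test of the difference itself, PRL_Sh tissue change minus female PRL tissue change, was negative in 75 of 79 genes, where 25.9% of all genes were negative, and positive in 0 in edgeR. At an unadjusted p under 0.05 it was also positive in 0, as it was in DESeq2. With female Veh in its place it was negative in 74 of 80 genes, where 23.7% of all genes were negative. The list took 0.796% to 0.833% of gene reads in PRL_Sh DRG and 1.11% to 1.31% in PRL_Sh paw, against 0.490% to 0.536% in female PRL DRG and 0.363% to 0.470% in female PRL paw. The library kit and whatever Sh stands for cannot be told apart here.

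**Figure D5:**
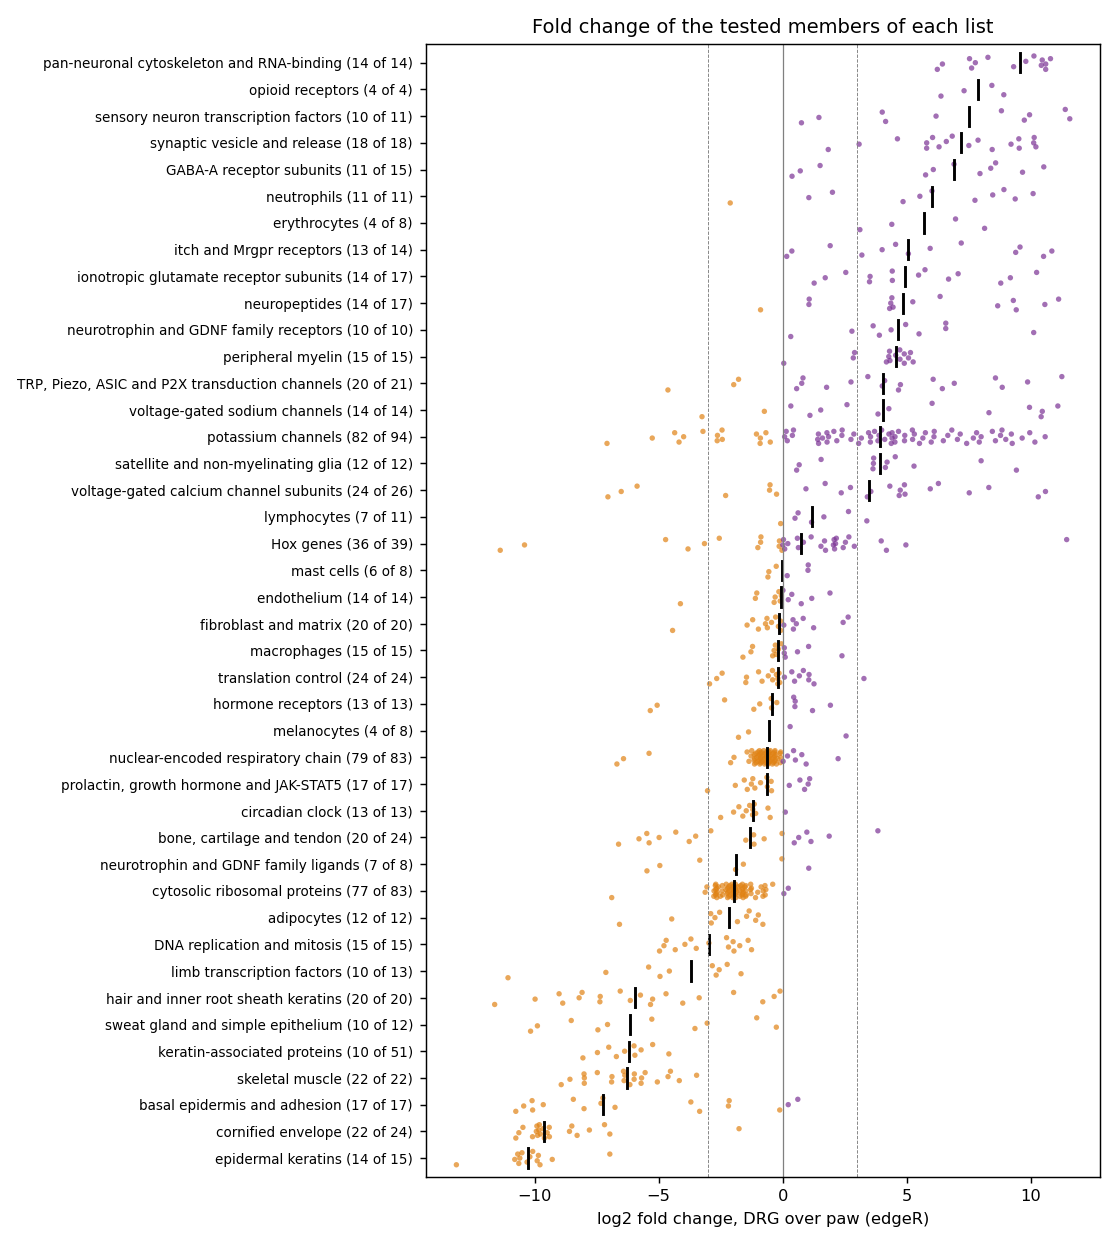
Log2 fold change, DRG over paw, of each tested member of the 42 lists, ordered by the list median (black bar), with dashed lines at 8-fold and the number tested of the number listed in parentheses. Pan-neuronal genes stand at the top with a median of 9.56 and epidermal keratins at the bottom with -10.25, while the macrophage, endothelial and fibroblast lists centre near 0.

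Some genes were found in 1 tissue alone. With at least 10 reads in each of 3 libraries of a tissue and none in the 3 of the other, 163 genes were found in DRG alone and 74 in paw alone. Hpca, a neuronal calcium sensor, had 915, 615 and 949 reads in DRG, against no read in any paw library, at least 753-fold higher in DRG. Gal, the peptide galanin, had 298, 160 and 435 reads in DRG, against no read in any paw library, and the cadherin Cdh8 had 418, 359 and 424 reads in DRG, against no read in any paw library. On the paw side, the wound keratin Krt6b had no read in any DRG library, against 1551, 1434 and 303 reads in paw, with paw replicate 3 the lowest. At the other end of abundance, genes with a mean of at least 500 CPM in one tissue all kept some reads in the other. Of 238 such DRG genes, 42 stood under 1% of their DRG level in paw and 10 under 0.1%, and the lowest was Scn10a at 0.0456%. Of 181 such paw genes, 65 stood under 1% in DRG and 18 under 0.1%, the lowest being Wfdc12 at 0.0463%. Where those last reads came from was not tested.

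MicroRNA genes are short and the mRNA libraries do not measure mature microRNAs. Reads assigned to such a gene cannot be told apart from those of a longer transcript across the locus. Of 615 microRNA genes listed, 26 were tested, counted by symbol and so with the host transcript Mir17hg. At an adjusted p under 0.05, 3 were higher in DRG and 18 lower, where 40.2% of all genes were higher and 39.9% lower. Both directions together passed at about the rate of all genes (80.2%), but the split leaned to the paw. Under the 8-fold rule 9 passed, 3 higher and 6 lower in DRG, where 12% of all genes were higher and 8.61% lower. The mature arms of 7 of these 9 genes, singled out after their values were seen, are shown to name the loci; RefSeq sequences from the GRCm38.p6 table run 5′ to 3′ with the seed, bases 2 to 8, in capitals.
mmu-miR-203-3p: gUGAAAUGuuuaggaccacuag
mmu-miR-133b-3p: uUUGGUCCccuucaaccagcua
mmu-miR-23a-3p: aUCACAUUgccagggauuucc
mmu-miR-27a-3p: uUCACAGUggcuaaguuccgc
mmu-miR-24-3p: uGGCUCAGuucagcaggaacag
mmu-miR-138-5p: aGCUGGUGuugugaaucaggccg
mmu-miR-338-3p: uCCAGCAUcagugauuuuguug
The 7 arms have 7 different seeds. Mir203, of epidermis, had no read in any DRG library, against 40, 34 and 24 reads in paw, and its arm lies at chr12:112130927-112130948 on the plus strand. Mir133b, of muscle, had no read in any DRG library, against 22, 23 and 26 reads in paw, with its arm at chr1:20682834-20682855 on the plus strand. Each microRNA is best known in a tissue that the paw holds. As both genes were singled out after their values were seen, this match is not a test.

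Mir23a, Mir27a and Mir24-2, neighbours on chromosome 8, were all lower in DRG. Mir23a had 0, 2 and 0 reads in DRG, against 29, 28 and 30 reads in paw, Mir27a had 0, 2 and 0 reads in DRG, against 61, 54 and 64 reads in paw and Mir24-2 had 6, 1 and 3 reads in DRG, against 72, 63 and 66 reads in paw. The paw libraries were above the DRG libraries for all 3. Their arms span chr8:84208563-84208583, chr8:84208727-84208747 and chr8:84208875-84208896 on the plus strand, and they are known to share a primary transcript. Higher in DRG were Mir138-2, with 20, 11 and 31 reads in DRG, against no read in any paw library, and Mir338, which lies within the neuronal gene Aatk, with 18, 14 and 20 reads in DRG, against no read in any paw library. Their arms lie at chr8:94324312-94324334 on the plus strand and chr11:120014781-120014802 on the minus strand. The host transcript Mirg, of the imprinted Dlk1 to Dio3 region, had 388, 365 and 423 reads in DRG, against 31, 15 and 16 reads in paw (log2 fold change 4.12 ± 0.25 SE, edgeR adjusted p = 2.55e-06).

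Libraries of a tissue were close to each other. Pearson correlations of log2 CPM across genes were 0.991 for each pair of DRG libraries and 0.984 to 0.992 between paw libraries, against 0.536 to 0.573 between tissues; genes are not independent replicates. The common biological coefficient of variation was 0.138 in DRG and 0.169 in paw. Among genes of at least 5 on the log2 CPM scale in DRG, the 5 with the widest spread were the muscle genes Myh4, Atp2a1, Ckm, Acta1 and Tnnt3, each highest in DRG replicate 2 and lowest in replicate 3. Atp2a1, the calcium pump of fast muscle, had 67.4, 320.2 and 9.95 CPM in DRG, against 6891, 3803 and 9828 CPM in paw. In paw the widest were Zmynd17 and the muscle genes Mybpc2, Myl2 and Myh7. Myh7, of slow fibres, had 0.649, 0.32 and 6.03 CPM in DRG, against 291, 124 and 878 CPM in paw, with paw replicate 3 the highest, and the epidermal gene Krt6b ran the other way.

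Most genes with a tissue difference of at least 8-fold went the same way in libraries that share no sample with PRL_Sh. Of the 1888 genes higher in DRG, 1712 were tested in female PRL libraries. There 1687 passed in the same direction, where 35.9% of all genes did, and 1334 were again at least 8-fold higher. In female Veh libraries 1736 of 1738 passed in that direction, where 40.9% of all genes did, and 1450 were at least 8-fold higher. Of the 1355 lower genes, 1190 were tested in female PRL libraries. There 987 passed in the same direction, where 36.5% of all genes did, and 794 were at least 8-fold lower. In female Veh libraries 1180 of 1195 passed in that direction, where 39.4% of all genes did, and 976 were at least 8-fold lower. The skeletal muscle list differed. In female PRL libraries 0 of 22 muscle genes passed in edgeR, and 0 at an unadjusted p under 0.05, against 22 of 22 in PRL_Sh and 22 of 22 in female Veh. The muscle share of gene reads there was 2.86%, 0.497% and 0.0688% in DRG and 2.09%, 6.04% and 0.275% in paw.

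Across all genes the tissue change differed between PRL_Sh and female PRL libraries in 6223 of 16110 tested (38.6%), positive in 2050 (12.7%) and negative in 4173 (25.9%). Under RLE scaling the split was 3031 positive and 2708 negative, and the median of the difference over all genes was -0.19 with TMM and 0.02 with RLE, so the balance of directions rests on the scaling. Without Female_DRG_PRL replicate 3 it was 3192 positive and 2016 negative. Macrophage genes were positive in 13 of 15 and fibroblast and matrix genes in 14 of 20, with medians of 1.95 and 1.68. With female Veh in place of PRL, where 10.2% of all genes were positive, 5 of 15 macrophage genes were positive and 1 negative, and 14 of 20 fibroblast genes positive and 1 negative. Kit, Sh and the libraries' own composition cannot be told apart in these values. Prlr did not pass this test, at -0.95 on the log2 scale (edgeR adjusted p = 0.051). It passed in edgeR without Female_paw_PRL replicate 3 (-1.28, adjusted p = 0.00428) and without Female_DRG_PRL_Sh replicate 3 (-1.09, adjusted p = 0.0491). Over all alternatives run it lay between -1.28 and -0.35, so the call rests on the setting.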

How the data were processed

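RNA was measured by single-end sequencing on an Illumina instrument. The PRL_Sh libraries were made with a stranded TruSeq mRNA kit and the other 24 with a stranded rRNA depletion kit, per the labels' protocols. Each deposited file holds raw read counts per gene plus 5 summary lines, which were left out of library sizes and tests. bcl2fastq, TopHat2 and HTSeq with mm9 are named in the submitters' processing notes; their versions, strand setting and counting mode: not given in the sources used here.

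Samples were grouped by their titles. Genes were filtered with filterByExpr, scaled with TMM and tested with edgeR 4.0.16 in R 4.3.3 by the quasi-likelihood F test, with Benjamini-Hochberg adjustment over all genes tested at a threshold of 0.05. A second rule asked for at least 8-fold. Fold changes are DRG over paw. The difference between 2 tissue contrasts was an interaction term over 12 libraries. Alternatives were RLE, upper quartile and no scaling, no filter, a filter of 1 CPM in 3 libraries, all 30 libraries, the replicate number as a block, limma voom 3.58.1, DESeq2 1.42.0 and leaving out each library. A gene with no read in a tissue was given a floor of 3 counts over its 3 libraries, which covers counting error only. On simulated counts for DRG against paw, 15676 genes were tested and 50 were changed at each fold. Changes of 2, 4, 8 and 16-fold were recovered in 78%, 98%, 94% and 100%. Of 206 calls, 21 (10.2%) were false, above the threshold of 0.05. For the interaction (15935 genes) the recovered shares were 22%, 86%, 90% and 96%. The simulation started from gene means over all libraries and changed few genes, while 80.2% were called in the real contrast. These rates therefore cannot be carried over to the real contrast.

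Genes were named by rule: the prolactin receptor and sex-linked checks, the 12 largest changes in each direction of at least 64 CPM, the 4 members of each list with the most reads and up to 3 against its main direction, ligand and receptor pairs, the most variable genes and the genes with the most reads. Some genes that this rule names are not reported here. Other list members, the genes found in 1 tissue alone and the microRNA genes were chosen after their values were seen. The members and lists were chosen with earlier results of these data known. Of 22609 symbols, 20043 matched a current RefSeq symbol, 2355 an older one and 211 none; the reference (GRCm38.p6) gave names and sequences only.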

Additional observations from a re-analysis of the deposited data

Results flagged for a closer look

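The tissue change differed between PRL_Sh and female PRL libraries in 6223 genes by the edgeR interaction test, and genes among the 5 largest differences in each direction, of at least 64 CPM in any of the 4 groups, are given here. Levels given here are CPM without TMM scaling.

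Among the positive differences, Col6a5, a collagen of skin, was at 7.31 ± 0.97 (log2 scale, SE, edgeR adjusted p = 0.000258). Its levels were 2.17, 3.19 and 1.73 CPM in PRL_Sh DRG, 0, 0.0459 and 0.407 CPM in PRL_Sh paw, 9.92, 13.7 and 18.4 CPM in female PRL DRG, and 109, 103 and 319 CPM in female PRL paw. Its log2 tissue change was 3.93 with PRL_Sh, -3.66 among PRL females and 3.70 among Veh females. With female Veh in place of female PRL the difference was -0.01 (adjusted p = 0.996 in edgeR). Fosb, an immediate early gene, was at 5.52 ± 1.33. It was at 3.75 without Female_paw_PRL replicate 3, which had 485 CPM where the other two female PRL paw libraries had 39.4 and 81.8 CPM, and at 4.47 with female Veh (edgeR adjusted p = 0.00103 and 4.33e-05). Retnla, of alternatively activated macrophages, was at 5.20 ± 0.64, and with female Veh at 2.09 (edgeR adjusted p = 0.106). Jakmip1 was at 3.99 ± 0.60, and with female Veh at 2.74 (edgeR adjusted p = 0.0101). Its paw levels were low, at 0, 0.0459 and 0.136 CPM with PRL_Sh and 0.716, 0.599 and 1.46 CPM in PRL females. In DRG it had 84.9, 81.7 and 92.2 CPM with PRL_Sh and 55.8, 66.1 and 65.7 CPM in PRL females. It was higher in DRG in each contrast, with log2 tissue changes of 10.37 (PRL_Sh), 6.07 (PRL) and 7.36 (Veh).

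The negative differences were all of muscle genes. Myl2 was at -8.61 ± 2.20, Myh7 at -8.45 ± 2.45, Abra at -8.21 ± 1.35, Myh2 at -7.75 ± 2.27 and Myoz2 at -7.72 ± 1.67. Myh2 had 541, 67.3 and 3.21 CPM in female PRL DRG, and 261, 1068 and 4.66 CPM in female PRL paw, against 1647 to 3330 CPM in PRL_Sh paw. With female Veh in place of female PRL, Myl2 was at -2.56, Myh7 at -1.79, Abra at -3.38 and Myoz2 at -2.48, and none of these 4 passed, while Myh2 did, at -2.90 (edgeR adjusted p = 0.00746). Without Female_DRG_PRL replicate 1, Myl2 was at -5.57, Myh7 at -5.40 and Myh2 at -5.21, and none of these 3 passed, while Abra at -6.10 and Myoz2 at -5.03 did (edgeR adjusted p = 0.00893 and 0.0427); Myh2 also missed the threshold without Female_paw_PRL replicate 1 (edgeR adjusted p = 0.0523). The part of the female PRL libraries' muscle share in these values was not tested.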

How the results depend on the processing

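The count of 12612 genes differing between DRG and paw was 12040 to 12611 without 1 library and 12153 to 13305 under the other alternatives, among them 12184 with the replicate number as a block. The labels name no pairing, so the block is given as a setting and not as a pairing. Deviations of same-numbered DRG and paw libraries from their tissue means correlated at 0.026, -0.116 and -0.0846 across genes. These values cannot decide whether the libraries share animals, as the most variable genes differed between the tissues. Counts at 8-fold were 1737 to 2169 higher and 1265 to 1646 lower. Upper-quartile scaling gave 5882 genes higher and 6776 lower in DRG and moved the median log2 fold change of all genes to -0.12; the fit of all 30 libraries gave 5627 higher and 7678 lower, with a median of -0.25. Of 271 named genes, 242 kept their call in all 15 alternatives, 14 lost it in at least 1, 15 gained one and 0 reversed. List counts that moved by over 1.5 times were the fibroblast genes lower in DRG (8; 4 without DRG replicate 3), the lymphocyte genes higher (4; 2 to 6), the endothelial genes lower (3; 6 with all 30 libraries), the bone genes higher (3; 2 without DRG replicate 2 and 5 without paw replicate 3), the melanocyte genes lower (2; 1), the mast cell genes lower (0; 2 with all 30 libraries), the keratin-associated genes lower (10; 6 with the filter of 1 CPM and 37 with no filter), the respiratory chain genes higher (5; 3 with all 30 libraries), the sodium channels lower (1; 2 without paw replicate 1), the basal epidermis genes higher (1; 2 without DRG replicate 3), the ribosomal genes higher (0; 2 with DESeq2), the neuropeptides lower (0; 1 without DRG replicate 1) and the limb factors higher (0; 1 with no filter). With the block the Prlr interaction passed, at -1.01 (edgeR adjusted p = 0.0118). The interaction count of 6223 was 5193 with the block, 5432 with female Veh, 6264 with DESeq2 and 4977 to 6289 without 1 library. DESeq2 gave 3309 positive and 2955 negative, so its balance turned as with RLE scaling; the cause was not tested. Depth limits single genes with few reads, such as Artn and the microRNA loci.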
